A study of Mus musculus with 10 samples.

Results

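The 8 genes described here, Prg2, Prg3, Epx, Ear1, Ear2, Ear6, Il5ra and Ccr3, encode granule proteins and receptors of eosinophils. They were chosen by name for their role, leaving mast cell and basophil genes aside, and all 8 were found among the 38086 gene IDs present in both count tables of the study. Their RNA was read from 10 RNA-seq libraries of sorted bone marrow progenitors of C57BL/6 mice aged 12 months. KO mice were Dnmt3a f/f Mx1-Cre+ and lose Dnmt3a, which writes new DNA methylation, once Cre is induced. CTRL mice were Dnmt3a f/f Mx1-Cre-, so both genotypes carried floxed alleles, and both were given 5 intraperitoneal injections of poly(I:C), per the labels. Cre was driven by the interferon-responsive Mx1 promoter, which is active in blood-forming cells and also in other tissues, and the loss of Dnmt3a cannot be told apart from the presence of Cre. GMP, the granulocyte-macrophage progenitors, were sorted as Lin- Sca1- cKit+ CD34+ FcgR+ cells, and LSK, which hold the stem cells and multipotent progenitors, as Lin- Sca1+ cKit+ cells. There were 3 KO and 2 CTRL libraries of each population, named here by genotype and title number (KO-178, KO-179, KO-352, CTRL-346 and CTRL-350 in GMP; KO-1327, KO-1333, KO-1334, CTRL-1326 and CTRL-1330 in LSK). The labels do not say that each number is a separate animal, so the p-values below speak only of variation from library to library.

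Eosinophils arise from myeloid progenitors that come under the control of GATA, C/EBP and PU.1 factors and of the cytokine interleukin 5. As they commit, they transcribe the genes of their granule proteins long before they leave the marrow, and the receptor that draws mature cells into tissue follows later. Prg2 encodes major basic protein, the cationic core of the eosinophil granule, and Prg3 its close relative. Epx encodes eosinophil peroxidase, which makes hypobromous acid from bromide. Ear1, Ear2 and Ear6 belong to the rodent eosinophil-associated ribonucleases, a rapidly duplicating branch of the RNase A family. Il5ra encodes the subunit of the interleukin 5 receptor that binds the cytokine, and Ccr3 the receptor for the eotaxin chemokines.

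The genes lie on 5 chromosomes (GRCm38, GENCODE vM21). Prg2 (ENSMUSG00000027073, chr2:84980461-84983632, plus strand) and Prg3 (ENSMUSG00000027072, chr2:84988215-84993886, plus strand) are next to each other. The Ear genes lie on chromosome 14: Ear1 (ENSMUSG00000072601, chr14:43818765-43875517, minus strand), Ear2 (ENSMUSG00000072596, chr14:44102654-44103534, plus strand) and Ear6 (ENSMUSG00000062148, chr14:51853699-51854643, plus strand). Epx (ENSMUSG00000052234) is at chr11:87864000-87875536 on the minus strand, Il5ra (ENSMUSG00000005364) at chr6:106710357-106749037 on the minus strand, and Ccr3 (ENSMUSG00000035448) at chr9:124021972-124031689 on the plus strand.

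The 250 bases before the RefSeq start are shown for 5 of these genes, because Dnmt3a acts on CG dinucleotides and because the promoters of Ear1 and Ear2 are near copies. RefSeq entries (GRCm38.p6) were matched for 7 of the 8 genes, the exception being Prg2. Each window is written 5′ to 3′ on the gene's own strand, with capitals at every CG. They span chr2:84987965-84988214 (plus strand) for Prg3, chr11:87875537-87875786 (minus) for Epx, chr14:43819640-43819889 (minus) for Ear1, chr14:44102404-44102653 (plus) for Ear2 and chr6:106749038-106749287 (minus) for Il5ra.
Prg3: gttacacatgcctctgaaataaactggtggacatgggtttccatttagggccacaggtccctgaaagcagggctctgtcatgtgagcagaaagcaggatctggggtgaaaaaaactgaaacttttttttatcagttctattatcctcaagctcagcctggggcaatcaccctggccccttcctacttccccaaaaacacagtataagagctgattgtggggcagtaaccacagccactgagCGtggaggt
Epx: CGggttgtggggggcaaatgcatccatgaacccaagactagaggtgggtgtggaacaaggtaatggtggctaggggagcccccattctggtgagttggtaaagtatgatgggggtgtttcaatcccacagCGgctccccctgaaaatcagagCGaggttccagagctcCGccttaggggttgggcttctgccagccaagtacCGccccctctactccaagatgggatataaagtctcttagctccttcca
Ear1: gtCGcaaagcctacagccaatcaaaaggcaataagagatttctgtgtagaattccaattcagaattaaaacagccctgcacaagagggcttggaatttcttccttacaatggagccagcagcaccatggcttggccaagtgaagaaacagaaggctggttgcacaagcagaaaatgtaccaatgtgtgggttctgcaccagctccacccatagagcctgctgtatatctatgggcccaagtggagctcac
Ear2: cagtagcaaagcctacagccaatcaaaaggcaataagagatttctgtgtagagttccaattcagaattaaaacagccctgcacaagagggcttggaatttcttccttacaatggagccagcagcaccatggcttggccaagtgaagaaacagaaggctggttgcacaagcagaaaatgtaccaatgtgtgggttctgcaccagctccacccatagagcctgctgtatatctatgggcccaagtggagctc
Il5ra: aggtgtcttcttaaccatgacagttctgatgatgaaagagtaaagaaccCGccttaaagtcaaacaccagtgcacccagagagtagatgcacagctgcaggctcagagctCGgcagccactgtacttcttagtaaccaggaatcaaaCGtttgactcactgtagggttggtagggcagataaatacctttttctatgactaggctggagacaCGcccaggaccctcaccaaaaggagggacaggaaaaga

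The matched windows held between 0 and 5 CG dinucleotides. Epx had 5 and Il5ra had 4, as many as or more than 49.5% and 44.5% of all windows. Prg3 and Ear1 had 1 each, and Ear2, Ear6 and Ccr3 had 0. The median over the same window of 27025 RefSeq genes was 6, with quartiles of 2 and 16, and 8.3% of all windows had 0. A GATA motif (GATAA, or TTATC on the other strand) was found in Prg3 at 123 and 111 bases before the start, in Il5ra at 73 bases and in Ccr3 at 29 bases, and in 23.0% of all windows. A C/EBP motif (TTGCNNAA, or TTNNGCAA on the other strand) was found in Ear1 and Ear2, at 92 and 90 bases before the start, and in 9.55% of all windows. A PU.1 motif (GAGGAA, or TTCCTC on the other strand) was found in Ccr3, at 181 bases before the start, and in 23.1% of all windows. The windows of Ear1 and Ear2 were 97.6% identical and their transcripts 96.0% identical, against 78.2% and 62.2% for Ear1 and Ear6. The RefSeq start of Ear1 lies within the longer GENCODE gene, and that of Ear6 within its GENCODE transcript.

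Facts of the libraries that bear on the genes are these. Counted reads ranged between 93850256 and 122658636 in GMP and between 29533371 and 30437981 in LSK. Dnmt3a, the targeted gene, was at 17.7 to 57.4 CPM (library-scaled read counts, TMM within a population) in GMP KO libraries, against 99.0 to 127 CPM in GMP CTRL libraries. It was at 57.8 to 65.5 CPM in LSK KO libraries, against 168 to 169 CPM in LSK CTRL libraries. The list for the GMP gate held Mpo, Elane, Prtn3, Ctsg, Cd34, Fcgr3 and Kit. Its genes summed to 12850 to 21960 CPM in GMP and 3766 to 4487 CPM in LSK. Mpo, a granule gene and no sort marker, made up 7028 to 13090 CPM of the GMP sum. Of these 7 genes, 5 were higher in GMP, while Cd34 and Kit were lower. In KO, Cd34 averaged 348 CPM in GMP and 857 in LSK, and Kit 233 and 831. The list for the LSK gate held Ly6a, Kit, Procr, Mecom, Hlf and Meis1. It summed to 235 to 296 CPM in GMP and 1478 to 1787 CPM in LSK. The description of KO-352 names the LSK tables, in conflict with its title and with the GMP table that holds it. By Y-linked reads, LSK libraries KO-1327 and CTRL-1326 were male and KO-1333, KO-1334 and CTRL-1330 female. Y-linked reads were not examined in the GMP libraries, so no GMP fit takes sex into account.

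In GMP the eosinophil genes were led by Prg2, the gene of major basic protein, in both genotypes. Per kb of exon, Prg2 was at 379.7 CPM in KO GMP, followed by Prg3 at 11.3, Epx at 9.83, Ear2 at 4.10, Ear6 at 3.82 and Ear1 at 2.70 CPM per kb, and the receptor genes came last, Il5ra at 0.351 and Ccr3 at 0.00601 CPM per kb. In CTRL GMP the order of the 8 genes was the same, Prg2 at 997.7, Prg3 at 47.6, Epx at 46.9, Ear2 at 13.9, Ear6 at 9.70, Ear1 at 9.63, Il5ra at 0.730 and Ccr3 at 0.0294 CPM per kb. In KO GMP the range of each gene between Prg3 and Ear1 overlapped that of the next in this order. In CTRL GMP the ranges of Prg3 and Epx over libraries overlapped, as did those of Ear2, Ear6 and Ear1. Prg2 made up 81.4% to 91.9% of all reads on the 8 genes in KO GMP libraries and 77.2% and 81.7% in CTRL GMP libraries.

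**Figure D1:**
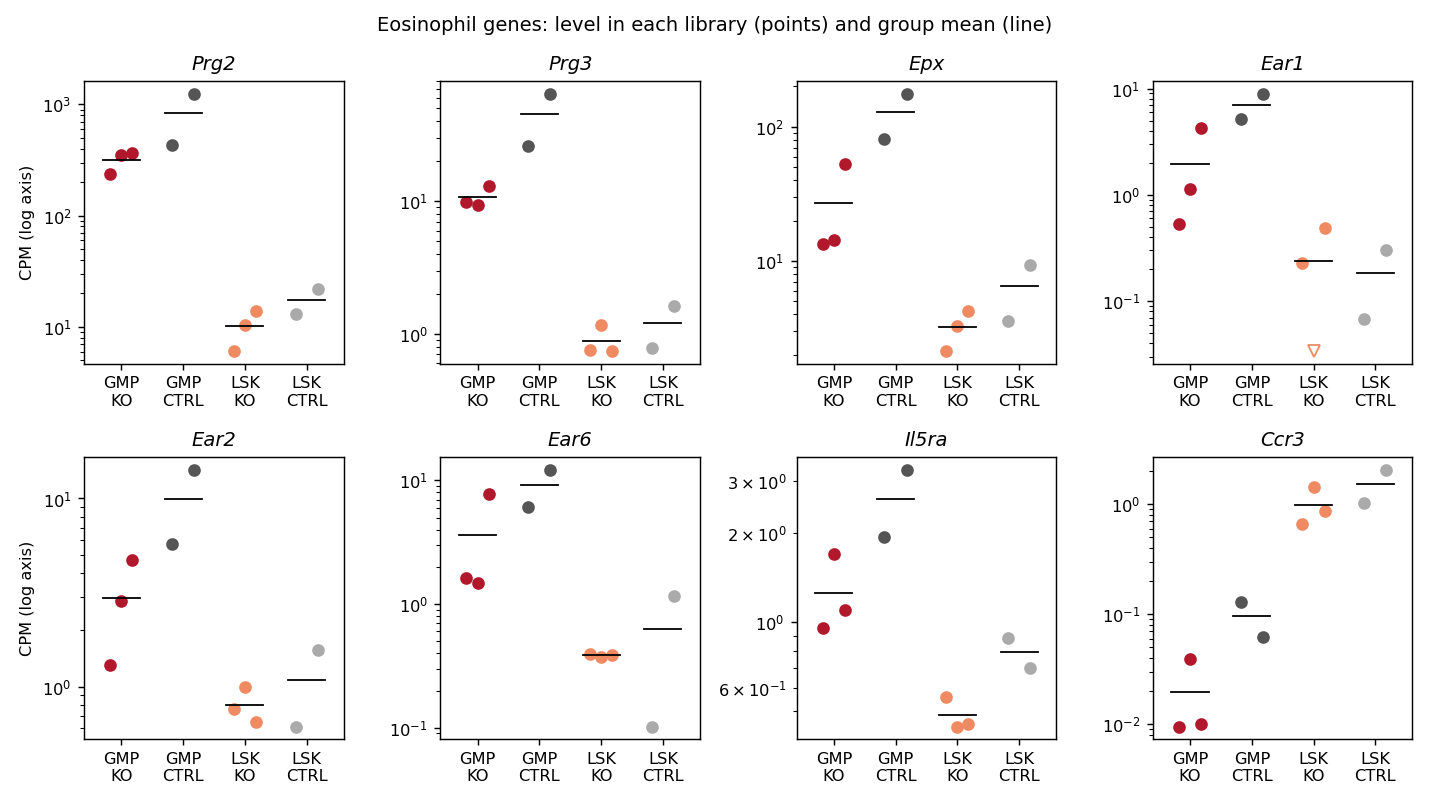
Level of each of the 8 genes in each library (points, CPM on a log axis, 1 scale per gene) with the group mean (line), for KO and CTRL libraries of GMP and of LSK. The open triangle stands for 0 reads of Ear1 in KO-1333; 7 of the genes were higher in GMP than in LSK, and Ccr3 was higher in LSK.

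The question of the first comparison was whether loss of Dnmt3a went with another level of these genes in GMP. All 8 had a lower mean in KO GMP, and in 7 of the 8 every KO library lay below both CTRL libraries, Ear6 being the exception. Of the 7 members tested, which leave out Ccr3, 6 were placed so. Among all 17290 genes tested, 15.1% had every KO library below every CTRL library. None of the 7 genes that passed the filter on low counts was called at an adjusted p of 0.05 by edgeR's quasi-likelihood test, where 0.0347% of genes were called in either direction. At an unadjusted p under 0.05 the same test took 5 of the 7, all lower in KO, against 6.62% of all genes tested lower in KO. DESeq2 called 2 of the 7 (Prg3 and Ear2), where it called 4.07% of all genes, and limma-voom called 0 of the 7 and 0% of all genes. The 7 log2 fold changes ran between −2.26 and −1.05 with a median of −1.76, beside a median of 0.01 over all genes tested. In these bulk libraries fewer cells of a type and less RNA per cell cannot be told apart.

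Prg2 was at 365.3 CPM in KO-352, 238.4 in KO-178 and 351.0 in KO-179, against 427.7 CPM in CTRL-346 and 1244 in CTRL-350. The KO libraries lay below both CTRL libraries, which themselves differed widely. KO-352 was nearer to CTRL-346 than to KO-178. The log2 fold change was −1.39 ± 0.41 (SE, edgeR, adjusted p = 0.31), and without CTRL-350 it was −0.44. Wherever a fit leaves a genotype with 1 library, that library is assumed to vary like the others, and its value is given here as a description.

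Prg3 was at 12.9 CPM in KO-352, 9.94 in KO-178 and 9.28 in KO-179, against 25.9 CPM in CTRL-346 and 64.4 in CTRL-350. The KO libraries lay close together, and all were below the lower CTRL library. Its value of −2.08 ± 0.36 on the log2 scale (SE) had the smallest p of the 7 genes (unadjusted p = 0.000719, adjusted p = 0.24, edgeR). It passed the adjusted threshold in 4 of the alternative analyses: with DESeq2 (adjusted p = 2.259e-06), without the count filter in edgeR (0.0187), in the edgeR fit of all 10 libraries (0.038) and in edgeR with the outside-gene read share as a covariate (0.035). The last 3 called 0.196%, 0.966% and 1.19% of all genes they tested. Without CTRL-350 it was −1.29.

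Epx, the peroxidase gene, was at 52.9 CPM in KO-352, 13.5 in KO-178 and 14.4 in KO-179, against 81.1 CPM in CTRL-346 and 175.8 in CTRL-350. KO-178 and KO-179 were alike, and KO-352 stood between them and the CTRL libraries. The log2 fold change was −2.26 ± 0.63 (SE, edgeR, adjusted p = 0.30). Without KO-352 it was −3.20 and was called (adjusted p = 0.029), in a fit that called 1.01% of all genes. With KO-352 as the single KO library it was −1.28. In the fit without KO-352, both KO libraries had a larger share of reads outside genes than both CTRL libraries. The share was 15.5% in KO-178 and 16.1% in KO-179, against 14.2% in CTRL-350 and less in CTRL-346. It was 10.3% in KO-352. Genotype thus goes with this share in that fit, and the part of the share in its calls was not tested.

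The ribonuclease genes were arranged over the libraries much as Epx was. Ear1 was at 4.25 CPM in KO-352, 0.536 in KO-178 and 1.14 in KO-179, against 5.14 CPM in CTRL-346 and 8.92 in CTRL-350. Ear2 was at 4.68 CPM in KO-352, 1.30 in KO-178 and 2.85 in KO-179, against 5.74 CPM in CTRL-346 and 14.2 in CTRL-350. Ear6 was at 7.70 CPM in KO-352, 1.64 in KO-178 and 1.48 in KO-179, against 6.11 CPM in CTRL-346 and 12.2 in CTRL-350. KO-352 was the highest KO library for each of these genes, and for Ear6 it lay above CTRL-346. The log2 fold changes were −1.83 ± 0.78 for Ear1 (adjusted p = 0.36), −1.76 ± 0.56 for Ear2 (adjusted p = 0.31) and −1.35 ± 0.73 for Ear6 (adjusted p = 0.44, SE, edgeR). Without KO-352, Ear1 at −3.06 (adjusted p = 0.0493) and Ear6 at −2.56 (adjusted p = 0.0488) were called in the same fit as Epx. With KO-352 as the single KO library the values were −0.72 for Ear1, −1.09 for Ear2 and −0.25 for Ear6, and without CTRL-350 those of Ear2 and Ear6 were −0.97 and −0.77.

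Reads of Ear1 and Ear2 could in part not be assigned. Of the 50-base words of their transcripts, 57.4% of those of Ear1 and 41.5% of those of Ear2 also occur in transcripts of another gene, among them Ear10 and each other, against 0.954% for Ear6 and 0% for Prg2, Prg3, Epx and Ccr3. Of the 100-base words, 23.9% of those of Ear1 and 13.9% of those of Ear2 do, and the read length was not given in the sources used. Reads placed at several sites were not counted, so the levels of Ear1 and Ear2 are uncertain. The Ear1 gene also overlaps 2 pseudogenes of the family, Ear-ps12 and Ear-ps9, in the annotation.

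The receptor genes were low. Il5ra was at 1.10 CPM in KO-352, 0.956 in KO-178 and 1.71 in KO-179, against 1.94 CPM in CTRL-346 and 3.28 in CTRL-350. KO-352 was here among the lower libraries, unlike for Epx and the Ear genes, and the groups did not overlap. The log2 fold change was −1.05 ± 0.38 (SE, edgeR, adjusted p = 0.34), and −0.64 without CTRL-350. Ccr3 had 1, 1 and 5 reads in KO-352, KO-178 and KO-179, against 12 and 6 reads in CTRL-346 and CTRL-350. It did not pass the filter, and without the filter its log2 fold change was −2.19 ± 1.10 (SE, edgeR, adjusted p = 0.49). The receptor of mature eosinophils was thus near 0 in all 5 GMP libraries while Prg2 was at 238.4 CPM or more.

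**Figure D2:**
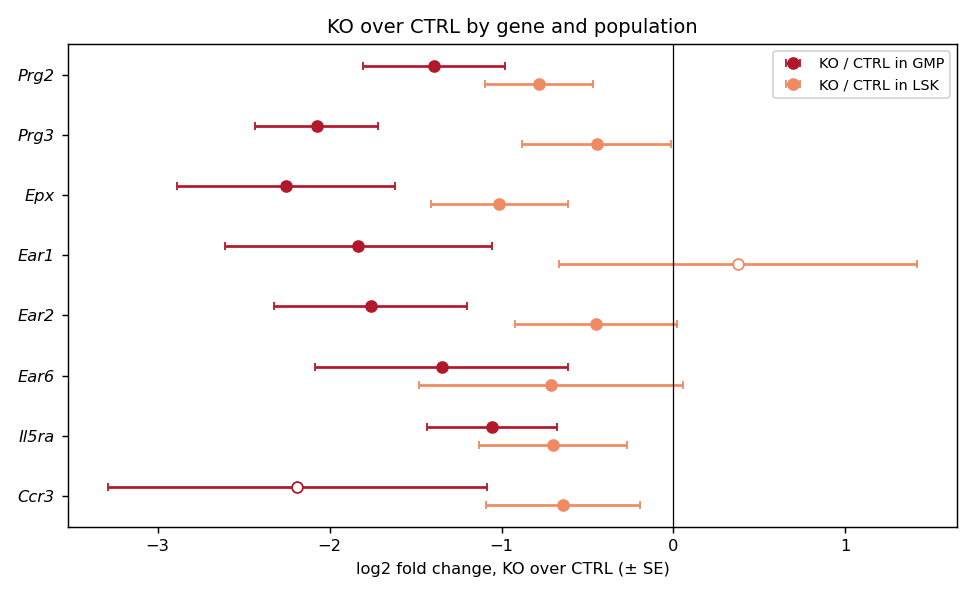
Log2 fold change of KO over CTRL (points) with its SE (bars) in GMP and in LSK for the 8 genes, from edgeR. Open points (Ccr3 in GMP, Ear1 in LSK) come from the fit without the filter on low counts; all values but that of Ear1 in LSK were below 0, and none was called.

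Relative to Prg2, the composition of the programme differed between KO libraries. Epx had 14.5 reads per 100 Prg2 reads in KO-352, 5.65 in KO-178 and 4.10 in KO-179, against 19.0 in CTRL-346 and 14.1 in CTRL-350. KO-352 was within the range of the CTRL libraries on this ratio and the other KO libraries were far below it. Ear1 had 1.16, 0.225 and 0.325 reads per 100 Prg2 reads in KO-352, KO-178 and KO-179, against 1.20 in CTRL-346 and 0.717 in CTRL-350. Ear6 had 2.11, 0.686 and 0.421 per 100 in the same KO libraries, against 1.43 in CTRL-346 and 0.983 in CTRL-350. Prg3 behaved otherwise, with 3.53, 4.17 and 2.64 reads per 100 Prg2 reads in KO-352, KO-178 and KO-179, against 6.06 in CTRL-346 and 5.17 in CTRL-350, so that every KO library was below both CTRL libraries. Ear2 had 1.28, 0.5455 and 0.813 per 100 in the same KO libraries, against 1.34 in CTRL-346 and 1.14 in CTRL-350. For Il5ra, KO-352 was the lowest KO library. It had 0.302, 0.401 and 0.486 per 100 in KO-352, KO-178 and KO-179, against 0.454 in CTRL-346 and 0.264 in CTRL-350. These ratios were not tested.

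**Figure D3:**
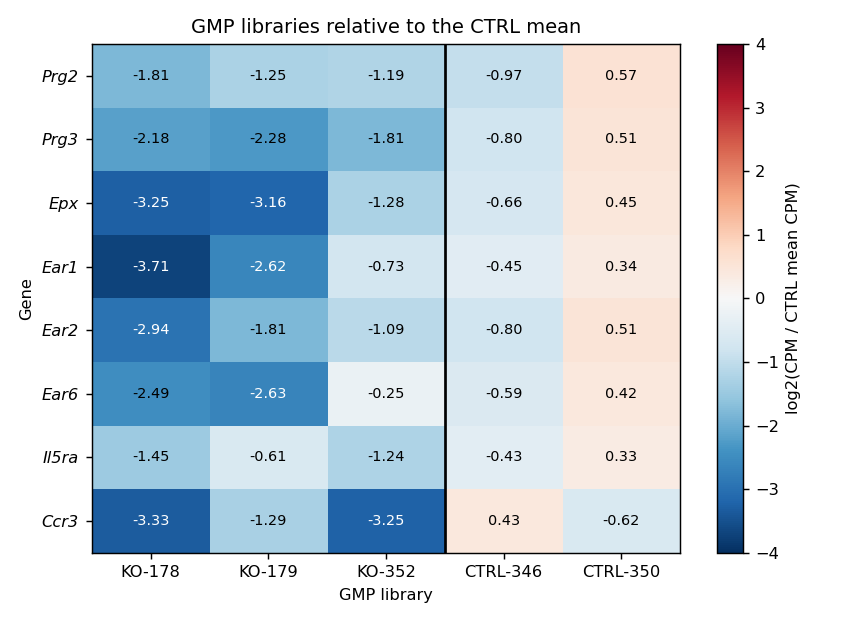
Log2 ratio of each GMP library (columns, KO left of CTRL) to the mean CPM of the CTRL libraries for each of the 8 genes (rows), printed in each cell and coloured from blue (below the mean) to red (above it). KO-178 and KO-179 are at −3.25 and −3.16 for Epx where KO-352 is at −1.28, while for Prg2 the KO libraries are at −1.81, −1.25 and −1.19.

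In LSK, 7 of the 8 genes were lower than in GMP, and their fitted differences between genotypes were nearer to 0. Prg2 was at 13.8 CPM in KO-1334, 6.09 in KO-1327 and 10.5 in KO-1333, against 13.0 CPM in CTRL-1326 and 21.9 in CTRL-1330. Epx was at 4.20, 2.14 and 3.28 CPM in KO-1334, KO-1327 and KO-1333, against 3.58 CPM in CTRL-1326 and 9.37 in CTRL-1330. For both genes KO-1327 was the lowest library and CTRL-1330 the highest, and KO-1334 lay above CTRL-1326, so the groups overlapped. For Il5ra the groups did not overlap. It was at 0.453, 0.560 and 0.444 CPM in KO-1334, KO-1327 and KO-1333, against 0.886 CPM in CTRL-1326 and 0.700 in CTRL-1330. These levels rested on few reads, 44 over the KO libraries and 47 over the CTRL libraries. Il5ra was the 1 gene of the 8, and of the 7 tested, whose KO libraries all lay below the CTRL libraries. The same held for 7.26% of all genes tested in LSK.

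Of the 7 genes tested in LSK, 0 were called by edgeR, where 0.0232% of 17238 genes were called in either direction, and 0 by DESeq2 (0.11% of all genes) or limma-voom (0.0232%). At an unadjusted p under 0.05, 2 of the 7 were lower in KO, Prg2 and Epx, against 1.72% of all genes tested. The log2 fold changes were −0.78 ± 0.31 for Prg2, −1.01 ± 0.40 for Epx, −0.70 ± 0.43 for Il5ra, −0.71 ± 0.77 for Ear6, −0.64 ± 0.45 for Ccr3, −0.45 ± 0.43 for Prg3 and −0.45 ± 0.47 for Ear2 (SE, edgeR, adjusted p = 0.9998 each). Their median was −0.70, beside 0.00271 over all genes tested. With sex of the library as a term, Prg2 was at −0.95 (adjusted p = 0.35) and Epx at −1.10 (adjusted p = 0.54). Ear1 had 22 reads over the KO libraries, with 0 in KO-1333, and 11 over the CTRL libraries; it did not pass the filter and its log2 fold change without it was 0.37 ± 1.04 (SE, edgeR, adjusted p = 0.9991).

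The remaining LSK levels also rested on few reads. Prg3 was at 0.744, 0.757 and 1.16 CPM in KO-1334, KO-1327 and KO-1333, against 0.784 CPM in CTRL-1326 and 1.63 in CTRL-1330. Ear2 was at 0.647, 0.757 and 0.991 CPM in the same KO libraries, against 0.613 CPM in CTRL-1326 and 1.57 in CTRL-1330. Ear6 was at 0.388, 0.395 and 0.376 CPM in the KO libraries, against 0.102 CPM in CTRL-1326 and 1.17 in CTRL-1330. For these genes CTRL-1330 was the highest library, and without it Prg3, Ear2 and Ear6 were higher in KO (0.17, 0.37 and 1.87 on the log2 scale). Ccr3 was at 0.873, 0.658 and 1.44 CPM in KO-1334, KO-1327 and KO-1333, against 1.02 CPM in CTRL-1326 and 2.07 in CTRL-1330.

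The difference between the KO effects of the populations was tested as an interaction (GMP minus LSK). It was below 0 for all 8 genes, so that the fitted KO effect was more negative in GMP for each of them, but 0 of the 8 were called, where 0.0265% of 18836 genes were called. Prg3 had the largest difference relative to its error, −1.62 ± 0.61 (SE, edgeR, adjusted p = 0.44). The other values lay between −2.20 and −0.33, with adjusted p of 0.58 to 0.90. Without CTRL-350 the differences of Prg2 and Il5ra were 0.35 and 0.07, and without CTRL-1326 that of Ear6 was 0.24.

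The step between the populations was large and was called for all 8 genes in both genotypes. In KO mice 7 genes were higher in GMP than in LSK, where 30.1% of genes were called higher in GMP, and Ccr3 was lower in GMP, where 30.7% were called lower. In CTRL mice the same 7 were higher in GMP, with 27.3% of all genes called higher, and Ccr3 was lower, with 28.2% called lower. Population coincides here with count table, the set of gene IDs listed in it and depth, and these cannot be told apart. The median over all genes tested was −0.08 in KO and −0.12 in CTRL on the log2 scale, and −0.46 and −0.53 when libraries were scaled by their size alone.

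Prg2 averaged 318 ± 69.5 CPM in GMP and 10.1 ± 3.89 CPM in LSK of KO mice (SD, n = 3 each), and 836 ± 578 CPM in GMP and 17.4 ± 6.35 CPM in LSK of CTRL mice (SD, n = 2 each). Its log2 fold change of GMP over LSK was 5.37 ± 0.47 in KO (adjusted p = 4.684e-06) and 5.97 ± 0.59 in CTRL (adjusted p = 1.836e-05, SE, edgeR). The values of Prg3 were 3.99 ± 0.40 in KO and 5.61 ± 0.50 in CTRL, and those of Epx 3.46 ± 0.62 and 4.70 ± 0.78. Among the ribonucleases, Ear1 was at 3.42 ± 0.97 in KO and 5.62 ± 1.27 in CTRL, Ear2 at 2.28 ± 0.55 and 3.58 ± 0.68, and Ear6 at 3.61 ± 0.84 and 4.24 ± 1.02. The receptor subunit Il5ra had the smallest rise, 1.76 ± 0.36 in KO and 2.10 ± 0.43 in CTRL. The highest adjusted p of these 7 genes was 0.0106, for Ear1 in KO (edgeR). With limma-voom the calls of Ear1, Ear2 and Ear6 in KO were lost (adjusted p = 0.066, 0.069 and 0.061), which left 5 of 8 called where limma-voom called 61.5% of all genes in either direction. Without KO-352 the KO values of Ear1, Ear6 and Epx were 2.16, 2.38 and 2.49, without CTRL-1330 the CTRL value of Ear6 was 6.82 and that of Ear1 7.01, and without CTRL-350 the CTRL value of Prg2 was 5.01, all still called.

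Ccr3 ran the other way. It had 7 reads over the GMP KO libraries and 89 over the LSK KO libraries, and 18 reads over the GMP CTRL libraries and 92 over the LSK CTRL libraries, although the GMP libraries were sequenced more deeply. Its log2 fold change of GMP over LSK was −5.07 ± 0.66 in KO (adjusted p = 7.858e-05) and −3.61 ± 0.70 in CTRL (adjusted p = 0.00148, SE, edgeR). Without KO-179 the KO value was −6.01, and without CTRL-346 the CTRL value was −4.22. Ccr2, the next protein-coding gene beyond Ccr3 and a chemokine receptor of monocytes, was higher in GMP, by 3.51 ± 0.18 in KO and 2.005 ± 0.21 in CTRL (SE, edgeR, adjusted p = 1.754e-07 and 3.01e-05).

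**Figure D4:**
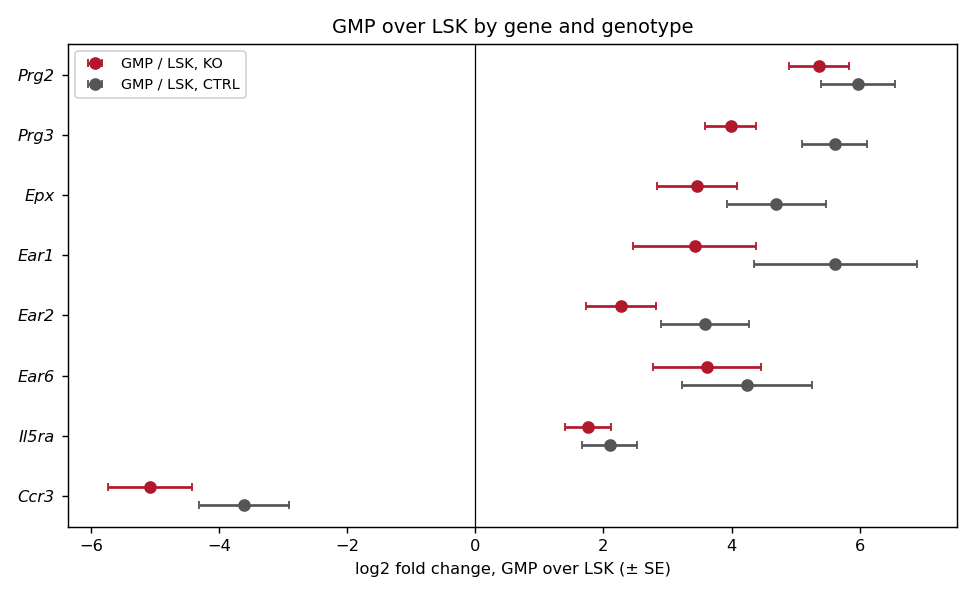
Log2 fold change of GMP over LSK (points) with its SE (bars) in KO and in CTRL mice for the 8 genes, from the edgeR fit of all 10 libraries. Points right of 0 were higher in GMP; Ccr3 alone of the 8 lies left of it, at −5.07 in KO and −3.61 in CTRL.

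Per kb, the order of the 8 genes in LSK was another than in GMP below Prg2. In KO LSK, Prg2 was at 12.1 CPM per kb, followed by Epx (1.17), Ear2 (1.11), Prg3 (0.935), Ear6 (0.409), Ear1 (0.327), Ccr3 (0.302) and Il5ra (0.136 CPM per kb). In CTRL LSK, Prg2 was at 20.8 CPM per kb, followed by Epx (2.37), Ear2 (1.52), Prg3 (1.27), Ear6 (0.671), Ccr3 (0.472), Ear1 (0.252) and Il5ra (0.222 CPM per kb). In KO LSK the ranges of neighbours in this order overlapped except below Prg2, Prg3 and Ccr3, and in CTRL LSK only Prg2 was clear of its neighbour. Ccr3 was thus below Il5ra in both GMP groups and above it in both LSK groups.

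Genes next to the members were compared as part of the same chromosomal stretches. Of 19 nearby protein-coding genes, 11 were tested in GMP, and 0 were called in KO against CTRL. Slc43a3, P2rx3 and Ssrp1 lie beside Prg2 and Prg3, Lpo and Mks1 lie beside Epx, and Mettl17 and Slc39a2 lie beside Ear6. Trnt1 and Crbn lie beside Il5ra, and Ccr1 and Ccr2 lie beside Ccr3. The Ear genes were taken as 1 stretch, so genes between them were not among the 19. None of the 11 tested genes lies beside Ear1 or Ear2. The other 8, Rtn4rl2, Olfr462, Olfr463, Gm6526, Gm8180, Cntn6, Cntn4 and Ccr1l1, did not pass the count filter. The log2 fold changes of the 11 ran between −0.09 and 2.07, with a median of 0.13, whereas those of the 7 members were all at or below −1.05. P2rx3, an ATP-gated channel gene 4697 bases beyond Prg3, was at 2.07 ± 0.91 (SE, edgeR, adjusted p = 0.37), while Prg3 was at −2.08. The KO GMP libraries ranged widely for P2rx3, between 1.16 and 12.6 CPM, against 1.27 to 1.49 CPM in CTRL GMP, so the groups overlapped. Ccr2 was at 304.6, 334.5 and 299.4 CPM in KO-352, KO-178 and KO-179, against 146.7 CPM in CTRL-346 and 213.2 in CTRL-350, which gave 0.80 ± 0.17 on the log2 scale (SE, adjusted p = 0.26, edgeR).

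**Figure D5:**
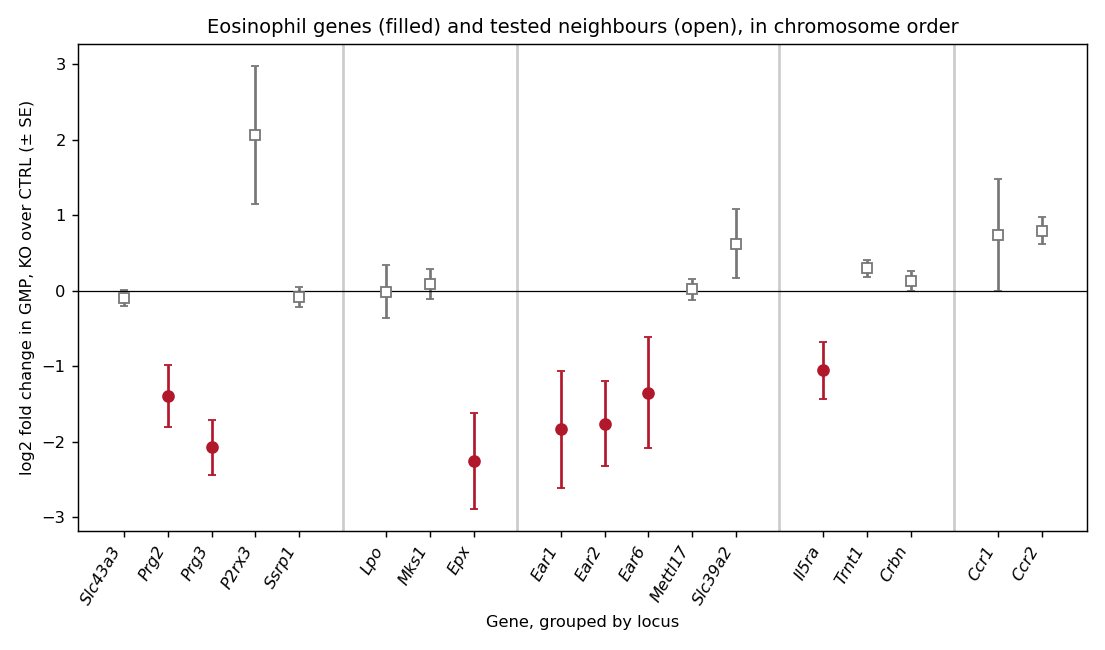
Log2 fold change of KO over CTRL in GMP with its SE for the 7 tested eosinophil genes (filled circles) and the 11 tested neighbouring genes (open squares), grouped by locus in chromosome order. The filled points lie between −2.26 and −1.05 and the open ones between −0.09 and 2.07.

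Other genes listed for eosinophils were spread on both sides of 0. Of 29 tested genes of a list of surface, signalling and effector genes, 13 were below 0 and 16 above in KO against CTRL in GMP. Their median was 0.04 with 0 called, beside the median of 0.01 over all genes. The list is not confined to eosinophils, and Cd24a averaged 475 CPM in KO GMP and 357 in KO LSK. In CTRL mice, 11 of 29 tested genes of the list were lower in GMP than in LSK and 18 higher. Siglecf, a sialic acid-binding inhibitory receptor of eosinophils, was at 43.9, 41.1 and 46.2 CPM in KO-352, KO-178 and KO-179, against 59.7 CPM in CTRL-346 and 66.3 in CTRL-350 (−0.53 ± 0.11, adjusted p = 0.26). Cysltr1, a receptor of cysteinyl leukotrienes, was at 7.80, 9.01 and 7.42 CPM in the same KO libraries, against 3.10 CPM in CTRL-346 and 4.62 in CTRL-350 (1.07 ± 0.24, SE, edgeR, adjusted p = 0.26). For both genes the genotypes did not overlap, with fold changes in opposite directions and nearer to 0 than that of Prg2. They were named for the smallest p-values of the list (edgeR), a choice that favours genes whose groups do not overlap. Of the 29 tested, 4 had every KO library below both CTRL libraries, against 15.1% of all genes tested. Another 7 had every KO library above them, and the share of all genes placed so was not counted.

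The wider ribonuclease family was mixed. Of 17 listed members, the 3 Ear genes included, 9 were tested in GMP, 5 below 0 and 4 above, with a median of −0.46 and 0 called. Rnase2a, another eosinophil-associated ribonuclease gene, had 10 reads in KO-352, 136 in KO-178 and 196 in KO-179, against 0 in CTRL-346 and 2 in CTRL-350. The ratio of pooled CPM was 101 (95% interval 27.9 to 841, counting error only), and the fitted test did not call it (adjusted p = 0.27, edgeR). Rnase4 was at 1.06 ± 0.26 (adjusted p = 0.27) and Rnase12 at −1.16 ± 0.45 (SE, edgeR, adjusted p = 0.35). Ear10 had 1 read, Ear14 0 and Rnase2b 1 over all 5 GMP libraries.

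Among 24 regulators of the lineage, all tested in GMP, 17 were below 0 and 7 above, with a median of −0.26 and 0 called. Cebpe, a C/EBP factor needed for granulocyte and eosinophil maturation, was at 39.4, 23.8 and 24.4 CPM in KO-352, KO-178 and KO-179, against 74.2 CPM in CTRL-346 and 61.4 in CTRL-350 (−1.21 ± 0.23, SE, edgeR, adjusted p = 0.25). KO-352 was its highest KO library, as it was for Prg2, Prg3, Epx and the Ear genes. Unlike for those genes, CTRL-346 lay above CTRL-350. Ets1 was at −0.83 ± 0.18 and Satb1 at 0.67 ± 0.15 (SE, edgeR, adjusted p = 0.26 each). Gata1, named after its values were seen because it directs eosinophil commitment, was at 2.94, 6.41 and 5.19 CPM in KO-352, KO-178 and KO-179, against 5.37 CPM in CTRL-346 and 14.1 in CTRL-350, so the groups overlapped (−1.003 ± 0.46, SE, edgeR, adjusted p = 0.39).

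Marker lists of other cell types were also compared in these libraries. The summed level of 14 mast cell and basophil markers was at 495 to 813 CPM in KO GMP, against 998 to 2574 CPM in CTRL GMP. All 10 tested were below 0 in KO against CTRL, with a median of −1.26, and 1 was called. Hdc, which makes histamine, was at 196.2, 194.4 and 201.0 CPM in KO-352, KO-178 and KO-179, against 418.1 CPM in CTRL-346 and 399.0 in CTRL-350 (−1.05 ± 0.10, SE, edgeR, adjusted p = 0.0414). The Hdc call was lost with limma-voom (adjusted p = 0.067) and when CTRL-346, CTRL-350, KO-178 or KO-179 was left out (adjusted p = 0.29, 0.23, 0.62 and 0.17), while the value stayed between −1.10 and −1.02. The fits without CTRL-346 or CTRL-350 hold 1 CTRL library, so their spread comes from the KO libraries. CTRL-350 was the highest library both for this sum and for the summed 8 eosinophil genes, which were at 266 to 449 CPM in KO GMP, against 554 and 1523 CPM in CTRL GMP. Of the 14 markers, Mrgprb2 had 0 reads in GMP, and Mcpt4, Tpsb2 and Tpsab1 had at most 2 in a library. The 10 mature neutrophil markers summed to 593 to 4413 CPM in KO GMP, against 949.5 and 2263 CPM in CTRL GMP, so the groups overlapped. KO-352 was the lowest library, and all 10 were above 0 in KO against CTRL with 0 called. Of 8 monocyte and macrophage markers tested, 4 were below 0 and 4 above, with a median of 0.07 and 0 called. Of 8 erythroid and megakaryocyte markers tested, 2 were below 0 and 6 above, with a median of 0.38 and 0 called. The part of these cells in the levels of the 8 genes was not tested.

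The genes most like Prg2 across libraries were found by the root mean square difference in log2 CPM over the 10 libraries, each taken relative to the mean of its population. Among 10810 protein-coding genes the median difference was 0.709. The closest were Hist2h3c2 (0.387), a histone gene, Prg3 (0.423), Ear2 (0.426), Spin4 (0.433) and Abca9 (0.446). Il5ra was at rank 20 (0.476), whereas Ear6 (0.608), Epx (0.612) and Ear1 (0.641) were at ranks 511, 574 and 1308. The libraries share depth and sort within a population, and the measure is a description with no test.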

How the data were processed

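The authors deposited raw counts of reads per Ensembl gene, made on mm10 (GRCm38); DESeq2 1.4.5, DESeq 1.18.0, HTSeq 0.5.3p3 and STAR are named in the submitters' processing notes, which give no roles. The annotation release and strand setting were not given in the sources used here, and the deposited tables of normalized values were not used. The library kit was a stranded total RNA kit with ribosomal RNA removal, per the labels' protocols, so unspliced RNA is also read. The GMP table ends in totals that name no gene, and these entered neither library sizes nor tests; reads outside genes made 8.50% to 16.1% and reads placed at several sites 26.3% to 29.0% of those listed. Symbols, exon lengths and coordinates come from GENCODE vM21 (37607 of 38924 GMP IDs and 44585 of 45513 LSK IDs matched), and promoters from RefSeq.

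The test was that of edgeR 4.0.16, run in R 4.3.3: filterByExpr with a minimum count of 10, TMM, quasi-likelihood test, two-sided, Benjamini-Hochberg adjustment over all genes tested, threshold 0.05. Populations were fitted separately for KO against CTRL; the interaction and GMP against LSK used all 10 libraries over gene IDs in both tables. The SE was taken as log2 fold change over the root of its F statistic. Alternatives were other scaling, no filter, DESeq2 1.42.0, limma-voom (limma 3.58.1), each library left out, and added covariates. The likeness measure used an offset of 0.5 CPM and genes of at least 1 CPM in GMP. Sequences were aligned with Biopython 1.88. The interval of a count ratio is exact and covers counting error alone, because reads were pooled within each group. It leaves out the spread between libraries. It also takes each read as separate, though no molecular identifiers mark which reads come from separate molecules. The edgeR test was tried on simulated counts with known changes. Those counts had the same spread setting for every gene, so they do not show how the test performs on genes that vary widely between libraries.

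The members and lists were chosen with earlier results of these data known. The rule for named genes takes all members, up to 3 genes with the smallest p for KO against CTRL in GMP from each of the other eosinophil, regulator and ribonuclease lists, any gene of a list called in that comparison, and the neighbouring genes by name; 1 gene that the rule takes is not reported here.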

Additional observations from a re-analysis of the deposited data

How the results depend on the processing

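Over the alternatives run, 83 of 91 values of members for KO against CTRL in GMP kept direction and side of the threshold, and the other 8 were newly called; none changed sign. Genes called in GMP numbered 6 as reported, 50 without the filter on low counts, 703 with DESeq2, 0 with limma-voom, 182 in the fit of all 10 libraries, 3 with KO-352 set alone against CTRL-346 and CTRL-350 and 205 with the outside-gene read share as a covariate, and 1 to 172 when each library was left out. Unadjusted p under 0.05 was reached by 2387 genes in GMP with edgeR and 2297 with limma-voom. Members called were 1 without the filter, 2 with DESeq2, 1 in the fit of all 10 libraries, 1 with that covariate, and 0 to 3 when each library was left out. In LSK, 27 genes were called without the filter, 19 with DESeq2, 0 in the fit of all 10 libraries (296 at an unadjusted p under 0.05) and 3 to 11 when each library was left out. With limma-voom, Ear6 in LSK was at 0.0887. When each LSK library was left out, Prg3 ran between −0.88 and 0.17, Ear2 between −0.97 and 0.37 and Ear6 between −1.58 and 1.87, the positive values without CTRL-1330. For the interaction, 38 genes were called without the filter, 214 with DESeq2, 2 with limma-voom and 1 to 513 when each library was left out. Its leave-one-out values ran between −1.16 and 0.35 for Prg2, −0.66 and 0.0726 for Il5ra, and −3.21 and 0.24 for Ear6. For GMP against LSK, 72 of 72 values in CTRL and 85 of 88 in KO kept direction and call, and limma-voom called 5 of 8 members in KO beside 61.5% of all genes. The causes were not tested. No paired analysis was possible because no title number is shared between groups. With 2 CTRL libraries per population, 1 library can move a value widely, and fits without one of them rest on a single CTRL library. Ccr3 in GMP and all members but Prg2 and Epx in LSK had fewer than 100 reads per group.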
